A study of Mus musculus with 8 samples.

Results

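The genes described here are 10 Sox transcription factors that act in neural lineages: Sox1, Sox2 and Sox3 (subfamily SoxB1), Sox21 (SoxB2), Sox4, Sox11 and Sox12 (SoxC), Sox5 (SoxD), and Sox9 and Sox10 (SoxE). They were chosen by name and, like the gene lists below, with earlier results of these data known. Their counts beside all probes or genes are therefore a description. All 17 probes of the array that carry one of these names were taken, of 55681 probes in all. The RNA came from mouse embryonic stem cells at day 6 of a neural induction, which the labels call RGC-like neural progenitor cells (NPC). The 4 control samples carried a control short hairpin RNA and the 4 knockdown samples one against Zrf1, a J-domain chaperone and chromatin factor named Dnajc2 in current annotation. Each sample named in the labels has its own single-colour array, but whether the 4 knockdown arrays are separate samples is open, as described below. The labels do not say whether samples of a group came from separate cultures. The p-values thus measure the spread between these arrays, which may be technical.

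Sox proteins bind DNA through an HMG box, usually together with a partner factor such as a POU or Pax protein. SoxB1 factors keep neural progenitors undifferentiated and activate progenitor genes, and Sox2 also works in the pluripotency network of embryonic stem cells. Sox21 counteracts the SoxB1 factors, SoxC factors activate genes of differentiating neurons, SoxD factors lack a transactivation domain of their own and modulate other Sox proteins, and SoxE factors act in neural stem cells, glia and the neural crest.

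A level below is the log2 processed signal of a probe minus the 75th percentile of its array, so that 0 is that percentile, and since probes hybridise with different strength, levels of different probes were not read as amounts of RNA. A dimmer probe is one with less signal. A change is the knockdown mean minus the control mean on this log2 scale. It is called higher or lower when limma's Benjamini-Hochberg adjusted p over all tested probes was under 0.05. On the 8 arrays the 75th percentile lay between 483 and 696 intensity units, 53.4% to 60.3% of spots were well above background, and none was saturated. The number of arrays limits the precision. The Dnajc2 probe A_52_P533198 fell from 1.87 ± 0.11 to -2.32 ± 0.23 (SD, n = 4 each), which is 18.3-fold lower (limma adjusted p = 1.38e-07), and the 2 groups did not overlap. Arrays 1 and 2 of the knockdown share a number in their file names, as do arrays 3 and 4, and 1 array of each pair carries the mark TR, which the labels do not explain. If it marks a repeat of the same sample, the 4 knockdown arrays are 2 samples. The SD of the log2 difference between the arrays was 0.380 and 0.405 in these pairs and 0.320 to 0.420 in the other knockdown pairs. With each pair averaged, 4 controls against 2, 10 member probes were called as well.

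Sequences are shown for the probes on which the results turn, as 30 of their 60 bases, 5′ to 3′ in the sense of the transcript. Capitals mark AATAAA, the polyadenylation signal found near the 3′ ends of transcripts. Positions are those of the files, on build mm9, and whether they are exonic or in a UTR was not analysed here. Sox1, Sox21 and Sox11 have several probes in 1 gene that reported changes of different size, Sox10 has the probe with the largest rise, and the Sox5 probe is a repeat.
Sox1 A_55_P2012056, chr8:12399496-12399555, plus strand: ttctgatgaggtAATAAAagaacacccctc
Sox1 A_55_P2012051, chr8:12397503-12397562, plus strand: ctagcgccgcggggacgccggggacactgc
Sox21 A_55_P2052655, chr14:118633351-118633410, minus strand: ttcatcccatgtgcaaatcaaagcaagacc
Sox21 A_55_P2104899, chr14:118633788-118633847, minus strand: cagccgccgcacttctgcagccaactttaa
Sox11 A_55_P2094721, chr12:28020087-28020146, minus strand: gttcaaaagaccAATAAAaatcgtgtgatc
Sox11 A_52_P160955, chr12:28019541-28019600, minus strand: gatgtttttatgaaagcctgtaagtggtcc
Sox10 A_55_P2094729, chr15:78985518-78985577, minus strand: tccagcgataccttAATAAAgtacgtagct
Sox5 A_55_P2156905, chr6:143776945-143776971, minus strand, where capitals mark GGA units: GGAGGAGGAGGAGGAGGAGGAGGAagaaaa
AATAAA stood in 4 of the 17 member probes (23.5%), the Sox5 probe A_55_P2088765 among them, and in 10.06% of all 55681 probes.

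Of the 17 probes, 15 passed the filter on dim signals, being well above background on every array of the control or the knockdown group, and were tested. In the knockdown 8 of the 15 were lower, 2 were higher and 5 were not called, where 28.1% of all 29090 tested probes were called lower, 29.0% higher and 57.1% in either direction. The fallers were Sox1, Sox2, Sox3, Sox21 and Sox11, and the risers Sox9 and Sox10. The median change of the 15 probes was -0.75, and that of all tested probes 0.05. Counted by the brightest probe of each gene, 5 of the 10 genes were lower, 2 higher and 3 not called, where 28.5% of 21749 genes were lower, 29.1% higher and 57.6% called in either direction. The control and knockdown arrays did not overlap for 11 of the 15 probes, which was the case for 54.1% of all tested probes. In bulk RNA, fewer cells of a type and less RNA per cell cannot be told apart.

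**Figure D1:**
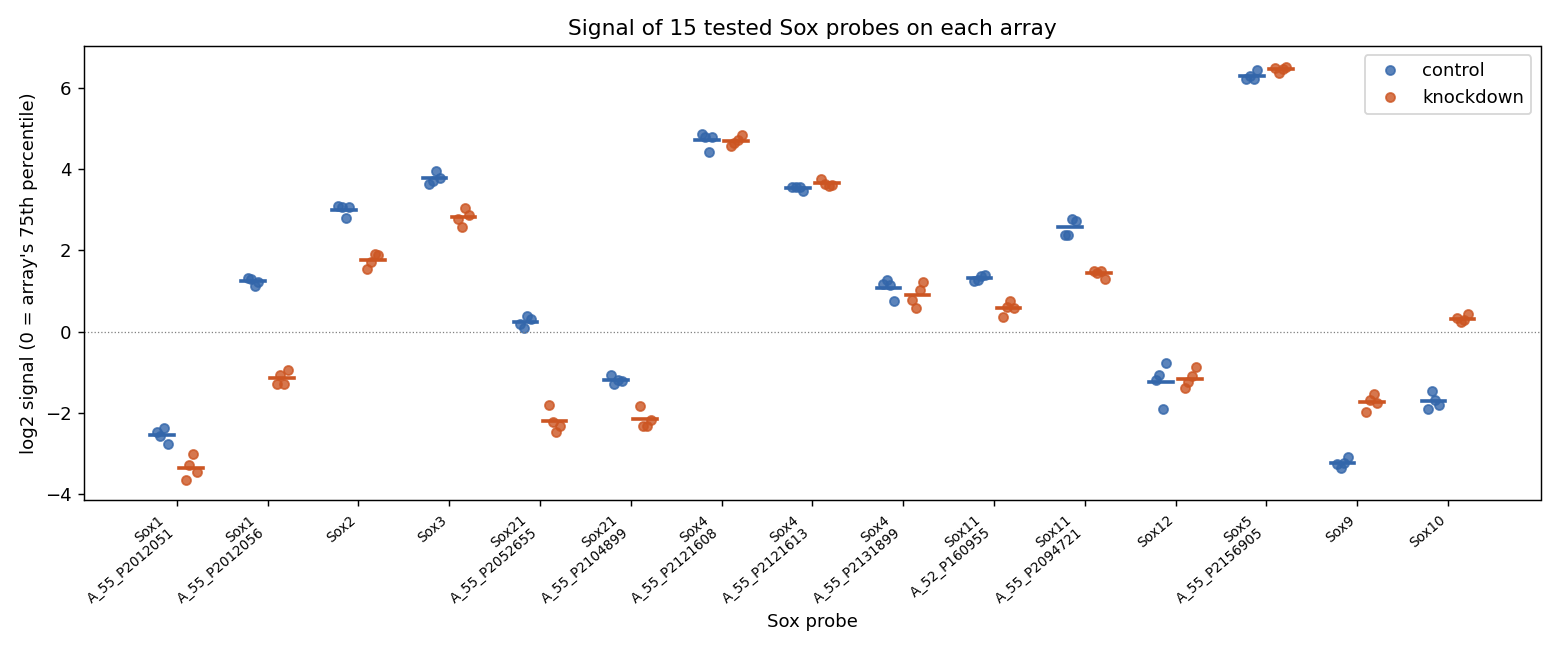
Level of each of the 15 tested member probes (x axis) on each array (y axis, log2 signal, where 0 is the array's 75th percentile), with control arrays in blue, knockdown arrays in orange and a bar at each group's mean (n = 4 each). The SoxB, Sox11, Sox9 and Sox10 probes show 2 separate groups of points, while 4 of the other 5 probes overlap, the exception being Sox4 A_55_P2121613.

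All 3 SoxB1 genes fell. Sox1, whose product marks committed neural progenitors, read 1.32, 1.29, 1.14 and 1.22 on the control arrays with probe A_55_P2012056 and -1.30, -1.06, -1.29 and -0.95 on the knockdown arrays. Every knockdown array was thus below its own 75th percentile and every control array above it. The means were 1.24 ± 0.08 and -1.15 ± 0.17 (SD, n = 4 each), a change of -2.39 (SE 0.098, 95% confidence interval -2.62 to -2.16), or 5.24-fold lower (limma adjusted p = 5.37e-07). The second Sox1 probe, A_55_P2012051, lies 1993 bases upstream and was dimmer, at -2.55 ± 0.17 in controls and -3.35 ± 0.27 in the knockdown. Its change was -0.79 (SE 0.146, 1.73-fold lower, limma adjusted p = 0.0018), without overlap of the groups. The change came to -0.42 with a normexp background correction, which here added an offset of 50 units to every signal.

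Sox2, the SoxB1 factor shared by pluripotent and neural progenitor cells, read 3.09, 3.08, 2.79 and 3.07 on the control arrays and 1.54, 1.72, 1.92 and 1.88 on the knockdown arrays (A_52_P307739, chr3:34550773-34550832, plus strand). All 4 knockdown arrays lay below all 4 controls and still well above the 75th percentile. The means were 3.01 ± 0.14 and 1.76 ± 0.17, a change of -1.24 (SE 0.110, 95% confidence interval -1.50 to -0.99), or 2.37-fold lower (limma adjusted p = 2.75e-05). Sox3, an X-linked SoxB1 factor of the early neural plate, read 3.63, 3.72, 3.96 and 3.79 in controls and 2.78, 2.59, 3.05 and 2.87 in the knockdown (A_55_P2163353, chrX:58144564-58144623, minus strand). The groups did not overlap. Its change was -0.95 (SE 0.116, 95% confidence interval -1.22 to -0.68), or 1.93-fold lower (limma adjusted p = 1.71e-04). Of all tested probes, 7.69% were called lower with a fall of at least 2-fold, which the brighter Sox1 probe and Sox2 reached and Sox3 did not.

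Sox21, the SoxB2 factor that represses SoxB1 targets, fell as well. Probe A_55_P2052655 read 0.20, 0.09, 0.40 and 0.31 on the control arrays and -1.79, -2.23, -2.47 and -2.32 on the knockdown arrays, and the groups lay far apart. The means were 0.25 ± 0.13 and -2.20 ± 0.29, a change of -2.45 (SE 0.147, 95% confidence interval -2.79 to -2.11), or 5.47-fold lower (limma adjusted p = 3.27e-06). The second probe, A_55_P2104899, lies 437 bases upstream and went from -1.19 ± 0.10 to -2.16 ± 0.23, a change of -0.97 (SE 0.120, 1.96-fold lower, limma adjusted p = 1.90e-04). The SoxB genes together had 6 of 6 tested probes called lower and a median change of -1.11, beside the 28.1% of all tested probes.

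Of the 6 SoxC probes 2 were lower, both of Sox11, and 4 were not called, a share close to the 28.1% of all tested probes called lower. Sox11, which drives neuronal gene expression in differentiating progenitors, read 2.39, 2.38, 2.78 and 2.72 in controls and 1.50, 1.45, 1.49 and 1.30 in the knockdown with A_55_P2094721. The 4 knockdown arrays lay close together, below every control. The means were 2.57 ± 0.21 and 1.44 ± 0.09, a change of -1.13 (SE 0.113, 2.19-fold lower, limma adjusted p = 5.54e-05). The other Sox11 probe, A_52_P160955, went from 1.33 ± 0.07 to 0.58 ± 0.16, a change of -0.75 (SE 0.091, 1.68-fold lower, limma adjusted p = 1.71e-04).

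Sox4, the SoxC factor that acts with Sox11 in neuronal differentiation, was not called with any of its 3 probes. The brightest, A_55_P2121608 (chr13:29040826-29040885, minus strand), read 4.87, 4.80, 4.42 and 4.79 in controls and 4.56, 4.64, 4.72 and 4.85 in the knockdown, with overlapping groups. Its change was -0.03 with a 95% confidence interval of -0.29 to 0.24 (limma adjusted p = 0.856). A_55_P2121613 (chr13:29042856-29042915) gave 0.12 with an interval of -0.03 to 0.27 (limma adjusted p = 0.164), although its knockdown arrays, 3.58 to 3.76, all lay above its controls, 3.47 to 3.56. This probe was called higher with the authors' values (0.20, limma adjusted p = 0.0255) and with quantile normalization (0.21, limma adjusted p = 0.0234). A_55_P2131899 (chr13:29044482-29044541) gave -0.19 with an interval of -0.57 to 0.19 (limma adjusted p = 0.368). These intervals exclude a fall of the size of either Sox11 probe, but they do not show that Sox4 stayed the same. Sox12, the third SoxC gene, read -1.19, -1.07, -1.91 and -0.77 in controls and -1.39, -1.24, -1.10 and -0.88 in the knockdown (A_66_P115541, chr2:152220036-152220095, minus strand). The control arrays spread over a wider range than the knockdown arrays and enclosed them. The change was 0.08 with an interval of -0.46 to 0.62 (limma adjusted p = 0.80).

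Both SoxE genes among the members, Sox10 and Sox9, rose. Sox10, which specifies neural crest derivatives and oligodendrocytes, read -1.90, -1.47, -1.68 and -1.80 in controls and 0.34, 0.23, 0.28 and 0.43 in the knockdown (A_55_P2094729). All controls lay below the 75th percentile of their arrays and all knockdown arrays above it. The means were -1.71 ± 0.19 and 0.32 ± 0.08, a change of 2.03 (SE 0.103, 95% confidence interval 1.79 to 2.27), or 4.09-fold higher (limma adjusted p = 1.51e-06). Of all tested probes 10.5% were called higher with a rise of at least 2-fold. Sox9, a factor of neural stem cells, gliogenesis and cartilage that is also active in endodermal organs, read -3.26, -3.37, -3.23 and -3.08 in controls and -1.98, -1.69, -1.53 and -1.75 in the knockdown (A_52_P214630, chr11:112648809-112648868, plus strand). The groups did not overlap. The means were -3.23 ± 0.12 and -1.74 ± 0.19, a change of 1.50 (SE 0.109, 95% confidence interval 1.25 to 1.75), or 2.82-fold higher (limma adjusted p = 9.15e-06). The size depended on the processing. The change was 0.89 (1.85-fold) where the background correction was replaced by normexp on the mean signal, with an offset of 50 units added to every signal. It was 0.77 (1.71-fold) with normexp, the same offset and quantile normalization, or with the authors' values. Such an offset makes the log2 change of a dim probe smaller, and its part in these values was not tested. This probe was printed 10 times on each array, and 8 to 10 of its spots were kept. The SD among these spots of an array was 0.074 to 0.244.

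Sox5, the SoxD member, had 1 tested probe of 3, and that probe is the repeat shown above. A_51_P500318 and A_55_P2088765 were well above background on 0 of 8 arrays. The third probe, A_55_P2156905, read 6.22, 6.29, 6.22 and 6.44 in controls and 6.49, 6.38, 6.48 and 6.53 in the knockdown, with overlapping groups. Its change was 0.17 with a 95% confidence interval of 0.00 to 0.35 (limma adjusted p = 0.0797). It was called higher with the authors' values (0.20, limma adjusted p = 0.0455) and without control replicate 4 (0.22, limma adjusted p = 0.0340). The probe holds 8 GGA units in a row, and the files place 27 of its 60 bases on the genome. The run GGAGGAGGAGGAGGA was found in 21 of 55681 probes. Of these probes 10 carry 1 of 7 gene or transcript names, Cplx2, Vash1 and Sox5 among them, and the others only a probe ID. The signal of 20 of the 21 lay above the 75th percentile of the arrays. What it measured was not tested, and without it 8 of 14 member probes were lower and 2 higher.

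**Figure D2:**
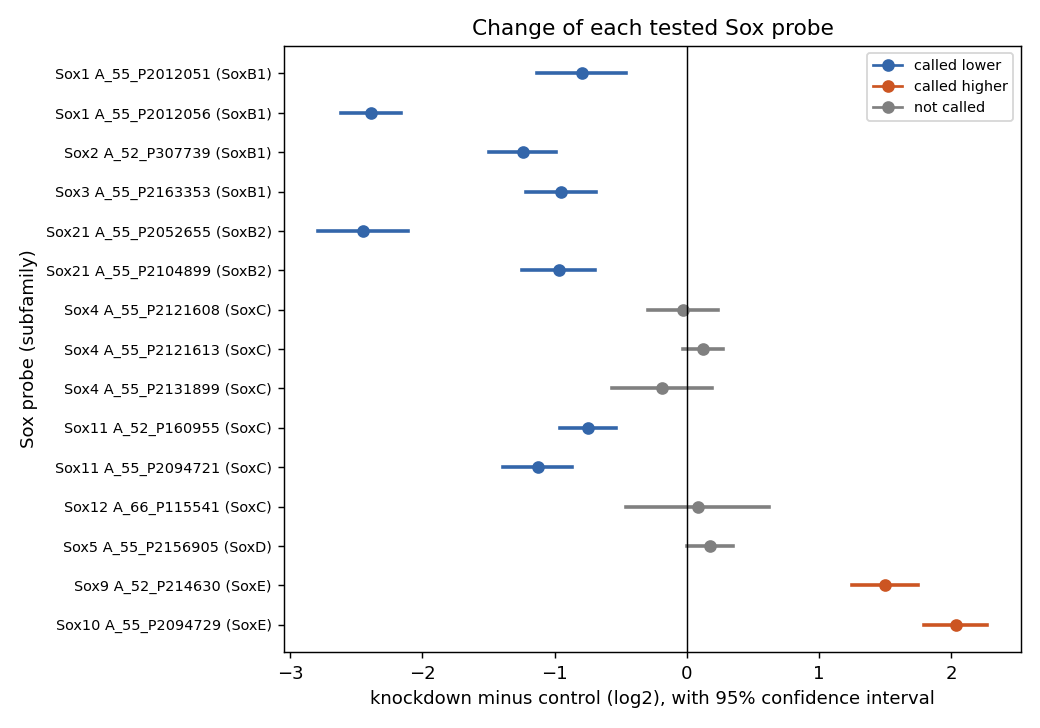
Change of each tested member probe (x axis, knockdown minus control, log2), with points at the change, lines for its 95% confidence interval and colours for called lower, called higher and not called. Sox21 A_55_P2052655 (-2.45) and Sox1 A_55_P2012056 (-2.39) lie at the lower end, Sox10 (2.03) at the upper end, and the intervals of 4 of the 5 uncalled probes cross 0, while that of the Sox5 repeat probe begins just above it.

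The arrays lay on 3 slides, and each held both groups: slide 1 had control 2 and knockdown 1, slide 2 had controls 3 and 4 and knockdowns 2 and 3, and slide 3 had control 1 and knockdown 4. All 10 called member probes kept their sign on each of the 3 slides. Within slides 1, 2 and 3, Sox1 A_55_P2012056 changed by -2.58, -2.35 and -2.27, Sox2 by -1.54, -1.11 and -1.21, and Sox3 by -0.94, -1.05 and -0.76. Sox21 A_55_P2052655 changed by -1.89, -2.70 and -2.52, Sox11 A_55_P2094721 by -0.88, -1.28 and -1.09, Sox9 by 1.39, 1.54 and 1.51, and Sox10 by 1.80, 2.00 and 2.33. On slide 2 alone, the only slide with replicates of both groups, 9 member probes were called. The dimmer Sox1 probe A_55_P2012051 was not among them (-0.57, limma adjusted p = 0.0921).

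The probes of 1 gene gave changes of different size. The Sox1 probe A_55_P2012056, which holds AATAAA in the sequence above, fell by more than the upstream A_55_P2012051, with a difference of changes of -1.60. The 3′ Sox21 probe A_55_P2052655 likewise fell by more than A_55_P2104899, with a difference of -1.48. In Sox11 the order was the other way: A_55_P2094721, the upstream probe, which also holds AATAAA, changed by -0.38 more than the 3′ probe. An exact two-sided permutation test over the 8 arrays gave p = 0.0286 for Sox1 and for Sox21, the smallest p this design allows, and p = 0.0857 for Sox11. The differences of the upstream Sox4 probes from the brightest were -0.15 (exact p = 0.314) and 0.16 (exact p = 0.40). Over these 5 comparisons the Benjamini-Hochberg adjusted p was 0.0714 for Sox1 and Sox21, 0.143 for Sox11, and 0.393 and 0.40 for Sox4, so no pair passed 0.05. With 8 arrays a pair can pass only if at least 3 of the 5 reach the smallest p. The adjusted test therefore could not decide for Sox1 and Sox21 by themselves, however large their differences. With the authors' values and without knockdown replicate 1, 3 of the 5 pairs passed. In Sox1, Sox21 and Sox11 alike the probe with the smaller fall was the dimmer one, and the part of brightness in its smaller fall was not tested.

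**Figure D3:**
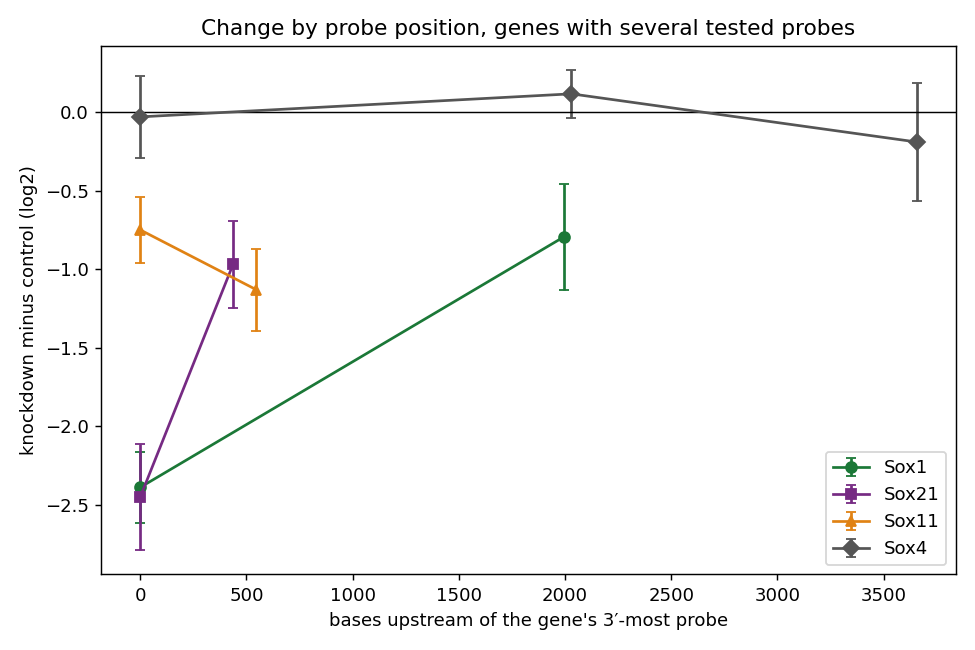
Change of each tested probe (knockdown minus control, log2, with its 95% confidence interval) against its distance in bases upstream of the 3′-most probe of the same gene, for the 4 genes with several tested probes, whose points are joined by lines. Sox1 and Sox21 show the larger fall at the 3′-most probe, Sox11 at the probe 546 bases upstream, and the 3 Sox4 probes stay near 0.

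The promoters of 3 members that were lower, Sox1, Sox2 and Sox21, are shown as the 250 bases before the annotated start, from RefSeq on GRCm38.p6. Of the 10 members, 7 were matched in that table, which held 32851 promoters. Capitals mark the CCAAT box (CCAAT, read as ATTGG on the other strand) and the GC box (GGGCGG, read as CCGCCC on the other strand).
Sox1, chr8:12395269-12395518, plus strand: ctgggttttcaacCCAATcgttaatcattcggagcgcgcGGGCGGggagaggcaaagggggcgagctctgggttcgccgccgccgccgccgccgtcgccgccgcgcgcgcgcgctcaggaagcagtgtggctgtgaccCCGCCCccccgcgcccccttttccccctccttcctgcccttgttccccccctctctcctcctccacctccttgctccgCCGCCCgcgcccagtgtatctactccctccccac
Sox2, chr3:34649745-34649994, plus strand: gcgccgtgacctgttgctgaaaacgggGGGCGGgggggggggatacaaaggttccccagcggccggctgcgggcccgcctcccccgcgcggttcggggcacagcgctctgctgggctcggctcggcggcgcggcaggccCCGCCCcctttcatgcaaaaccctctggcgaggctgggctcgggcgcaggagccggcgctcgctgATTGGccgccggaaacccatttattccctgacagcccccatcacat
Sox21, chr14:118237031-118237280, minus strand: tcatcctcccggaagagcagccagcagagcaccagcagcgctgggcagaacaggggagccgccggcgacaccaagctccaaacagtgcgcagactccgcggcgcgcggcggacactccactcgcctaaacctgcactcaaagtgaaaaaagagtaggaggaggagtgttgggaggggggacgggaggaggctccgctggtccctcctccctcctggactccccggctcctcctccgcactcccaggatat
The Sox1 window held 1 CCAAT box, 3 GC boxes and 29 CpG dinucleotides. That of Sox2 held 1 CCAAT box, 2 GC boxes and 27 CpG, and that of Sox21 no CCAAT or GC box and 17 CpG. Over all promoters 33.85% held a CCAAT box and 32.74% a GC box on either strand, and the median number of CpG was 6. The Sox core motif ACAAAG (read as CTTTGT on the other strand), found in 16.46% of promoters, occurred once in the Sox2 window. The core ACAATG, which reads CATTGT on the other strand, was found in 10.69% of promoters and in none of the 3 windows. The TATA motif TATAAA, which reads TTTATA on the other strand, was found in 12.37% of promoters and in none of the 3 windows. A match is a description of letters. In the 3 windows shown the motifs do not overlap one another, while in that of Sox12 some GC boxes share bases. Among the other matched members, Sox11, which was lower, held 1 CCAAT box, 2 GC boxes and 17 CpG. Members not called held such motifs as well: Sox12 had 1 CCAAT box, 3 GC boxes and 35 CpG. Sox4, also not called, had 4 CCAAT boxes, no GC box and 11 CpG. Sox5 had neither box and 3 CpG. Sox3, which was lower, and Sox9 and Sox10, which were higher, were not matched. Among the matched members the motifs thus did not set those that were lower apart from those not called.

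Other Sox genes on the array were mostly dim. Of 10, 4 were tested. Sox7, an endodermal and endothelial SoxF factor, was not well above background on any control array and was at least 2.87-fold higher in the knockdown (limma adjusted p = 1.36e-04). Such a bound takes, on each dim array, the lowest signal that counts as well above background, or that of the probe itself where it is higher, and sets their mean against the bright group's. Sox17, an endoderm SoxF factor, rose by 0.55 (1.46-fold, limma adjusted p = 0.0122) with A_55_P2157023, while A_55_P2094706 gave 0.24 (limma adjusted p = 0.106). Sox17 was not called with median scaling. Sox15, a relative of the SoxB genes expressed in stem cells, was 1.36-fold lower (limma adjusted p = 0.00329), and Sox13 gave -0.13 (limma adjusted p = 0.475). Sox6, Sox8, Sox18 and Sox30 were not well above background on any array, nor was Sox14 or Sry on all arrays of a group. Both probes of Sox1ot, the transcript that overlaps Sox1, were also too dim to test.

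Partners of Sox factors fell in 4 of 7 tested cases and rose in 1, with a median change of -0.44 beside 0.04 over all genes. Of all genes 28.5% were called lower and 29.1% higher, the shares beside which each list count here and below stands. The neural POU factors Pou3f3 and Pou3f2, which bind next to Sox2 in progenitors, were at least 8.31-fold lower (Pou3f3, limma adjusted p = 2.55e-06) and 6.52-fold lower (Pou3f2, limma adjusted p = 1.07e-04). Pax3, a factor of dorsal neural tube and crest, was 3.20-fold lower (limma adjusted p = 1.80e-06), and the chromatin remodeller Chd7 changed by -0.44 (limma adjusted p = 0.00422). Pou3f1, a POU factor of the epiblast and early neural cells, went the other way and was 3.33-fold higher (limma adjusted p = 1.60e-06). Pax6, a Sox2 partner in eye and cortex, gave -0.24 (limma adjusted p = 0.101), and Pou5f1, the partner of Sox2 in pluripotent cells, -0.33 (limma adjusted p = 0.141).

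Genes that SoxB1 factors activate in neural progenitors were lower in 7 of 9 tested cases, higher in 1, and had a median change of -0.98. Hes5, a Notch effector that keeps progenitors undifferentiated, fell from 5.12 ± 0.08 to 1.10 ± 0.13 (16.2-fold lower, limma adjusted p = 5.03e-08). Lin28b, an RNA-binding protein of early progenitors, was 3.33-fold lower (limma adjusted p = 4.03e-07), and the intermediate filament gene Nes 1.98-fold lower (limma adjusted p = 8.95e-06). Egfr, a growth factor receptor, was 2.10-fold higher (limma adjusted p = 5.87e-05), and Notch1 gave -0.13 (limma adjusted p = 0.676). Of the neuronal genes that SoxC factors activate, 4 of 4 tested were lower, with a median change of -1.71, which was -1.01 with quantile normalization or the authors' values. Tubb3, the neuronal tubulin, was 7.52-fold lower (limma adjusted p = 5.72e-07). Dcx, a microtubule protein of migrating neurons, was called lower (limma adjusted p = 1.38e-04), with its signal over background on 4 control arrays and 1 knockdown array. Map2, another neuronal microtubule protein, was 1.66-fold lower (limma adjusted p = 0.00895).

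Glial and crest genes activated by SoxE factors were higher in 3 and lower in 5 of 9 tested cases, with a median change of -0.25, beside 29.1% higher and 28.5% lower over all genes. The glutamate transporter gene Slc1a3 was 3.84-fold lower (limma adjusted p = 8.43e-07). The melanocyte factor Mitf was 1.44-fold higher (limma adjusted p = 5.79e-04), and the receptor gene Ret was called higher (limma adjusted p = 0.0132), with 2 control arrays well above background. Mitf was not called with median scaling, nor Ret with averaged knockdown arrays. Cartilage genes activated by Sox9 and SoxD factors were higher in 5 and lower in 1 of 6 tested cases, with a median change of 0.50. Comp, a matrix protein, was 2.71-fold higher (limma adjusted p = 4.00e-06) and Col9a2 1.60-fold higher (limma adjusted p = 2.14e-04). Col2a1, the main cartilage collagen and a direct Sox9 target, was 2.16-fold lower (limma adjusted p = 2.12e-06). Col11a2 and Hapln1 were among the 5 and were not called with median or quantile scaling, which left 3 higher.

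**Figure D4:**
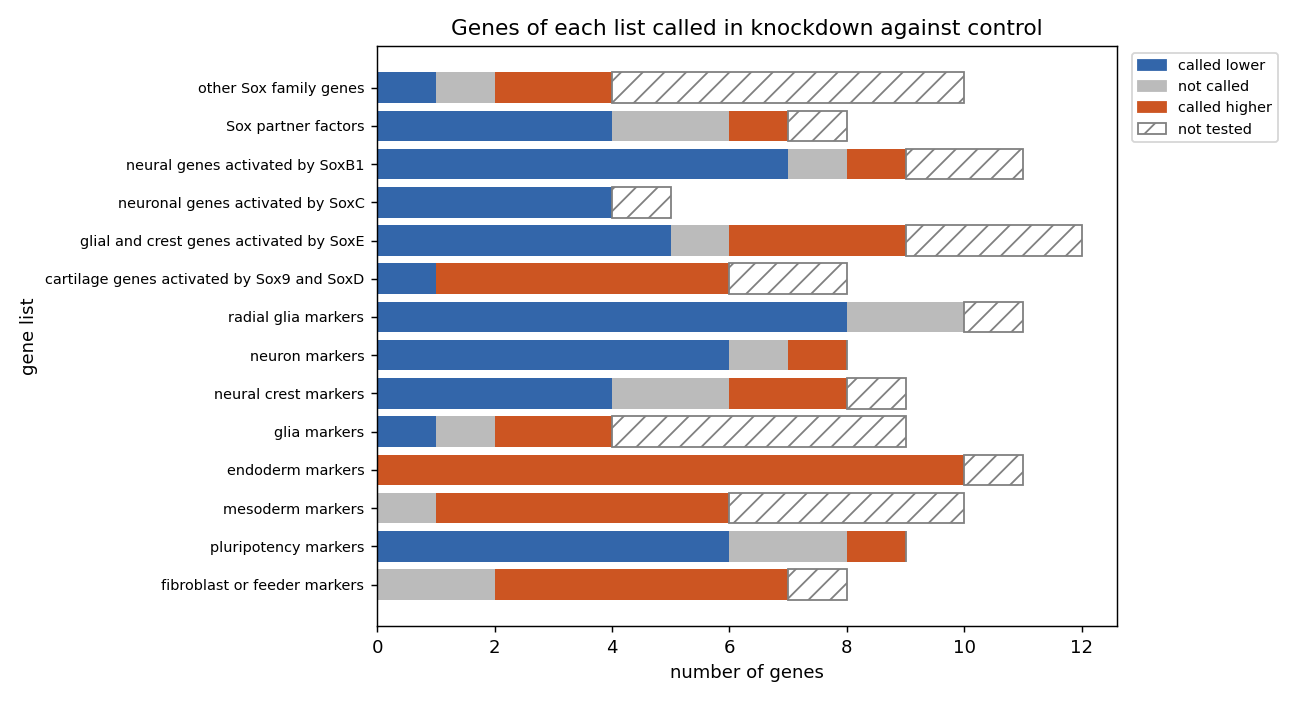
Number of genes (x axis) of each list (y axis) called lower, not called, called higher and not tested in knockdown against control, as stacked bars, with each gene taken by its brightest probe. Radial glia markers have 8 lower and 0 higher genes, and endoderm markers 10 higher and 0 lower.

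Many markers of cell types were called in the knockdown too, though not always in the direction of the Sox genes. Their part in the Sox changes was not tested. Each marker count here and below stands beside 28.5% lower and 29.1% higher over all genes. Of 11 radial glia markers, which check the label of the samples, 10 had a signal well above background on each of the 4 control arrays. In the knockdown 8 of these 10 were lower, with a median change of -1.61, and the summed linear level, in units of the 75th percentile, was 146.8 to 151.5 in controls and 36.6 to 38.3 in the knockdown. Fabp7, a lipid-binding protein of radial glia, dropped below background on all 4 knockdown arrays, at least 109-fold lower than in controls (limma adjusted p = 1.60e-06). Neuron markers were lower in 6 and higher in 1 of 8 cases, the exception being Stmn2, 4.75-fold higher (limma adjusted p = 2.59e-07), and their sum was 9.86 to 11.4 in controls and 10.8 to 11.7 in the knockdown. Without Stmn2 the sum was 8.32 to 9.54 in controls and 3.18 to 3.59 in the knockdown. The pluripotency markers were lower in 6 and higher in 1 of 9 cases, with sums of 63.4 to 70.1 and 26.9 to 28.5. Nanog, a factor of pluripotent cells, fell from 4.53 ± 0.07 to 2.08 ± 0.01 (5.44-fold lower, limma adjusted p = 7.93e-08), and Klf4 was 1.50-fold higher (limma adjusted p = 3.46e-04).

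Beside the rise of Sox10, the neural crest markers were lower in 4 and higher in 2 of 8 tested cases. Over all genes 28.5% were lower and 29.1% higher. The sum of the crest markers went from 17.1 to 19.3 in controls to 9.85 to 10.98 in the knockdown. Pax3 alone set that direction: without it the sum was 4.81 to 5.20 in controls and 5.99 to 6.41 in the knockdown. Pax7, a crest and dorsal neural tube factor, was called lower (limma adjusted p = 1.46e-05), with 1 knockdown array well above background. Ets1, a factor of crest and mesoderm, was 5.33-fold higher (limma adjusted p = 3.65e-07), and Foxd3 was well above background on 1 control array and 0 knockdown arrays. Of 9 glia markers 4 were tested, 2 higher, among them the astrocyte gene Aldh1l1 (2.08-fold, limma adjusted p = 7.20e-05), and 1 lower (Mbp, 1.19-fold, limma adjusted p = 0.0383, and not called with quantile normalization). Olig1 and Olig2, which define the oligodendrocyte lineage, were not well above background on any array, and the sums were 6.07 to 7.06 and 6.47 to 7.34.

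Beside the rise of Sox9, Sox7 and Sox17, all 10 tested endoderm markers of 11 were higher, with a median change of 2.74 and sums of 2.43 to 2.94 in controls and 11.6 to 12.6 in the knockdown. The median change was 1.40 with quantile normalization and 1.39 with the authors' values, and 8 of the 10 were called with median scaling or averaged knockdown arrays. Sox7 and Sox17 are themselves in that list. Afp, a serum protein of yolk sac and liver, was at least 9.24-fold higher (limma adjusted p = 3.34e-08), and Gata6, a factor of primitive endoderm, 8.84-fold higher (limma adjusted p = 1.87e-07). Apoa1 stayed at background on every array. Mesoderm markers were higher in 5 of 6 tested cases, with sums of 1.02 to 1.22 and 3.81 to 4.00, while Hand1, Mesp1 and Mixl1 were not well above background on any array. Actc1, a muscle actin gene, was 8.80-fold higher (limma adjusted p = 1.06e-07). Fibroblast or feeder markers were higher in 5 of 7 tested cases, with sums of 31.2 to 34.0 and 103.3 to 129.5. Thy1, a surface glycoprotein of fibroblasts and neurons, was 15.8-fold higher (limma adjusted p = 5.03e-08).

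The genes whose levels over the 8 arrays ran most like a member were ranked by Pearson's r, as a description. The 8 arrays fall into the 2 groups, so r mostly reflects the difference between them. For Sox2 these were Ranbp6, Sema5b and Zfp873 (r = 0.998 each), and 20.5% of genes had r above 0.9 with Sox2. For Sox11 they were Foxa1 (0.998), Eid1 (0.997) and Cyb5b (0.996), with 23.0% of genes above 0.9. For Sox9 they were P4ha2 (0.996), Klf8 (0.996) and Ap1s2 (0.995), with 18.6% above 0.9. For the Sox5 repeat probe they were Thrsp (0.962), D1Pas1 (0.961) and Tmem74 (0.953), with 0.287% above 0.9.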

How the data were processed

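The authors deposited scanner files with the intensity of each spot on an Agilent mouse array (design 028005, 60-base probes). Signals, per the file headers, were extracted and background-corrected with Agilent Feature Extraction 10.7.3.1. Per the labels' protocols, 100 ng of total RNA was amplified from an oligo-dT primer and labelled with Cy3. The authors' deposited value table, used as an alternative, holds log2 values whose making is not given in the sources used here.

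Outlier spots were removed, the spots of a probe averaged (33 probe values were then missing), log2 taken and each array's 75th percentile subtracted. Probes well above background on all arrays of a group were tested, two-sided, with limma 3.58.1 in R 4.3.3 (lmFit, eBayes; Benjamini-Hochberg over 29090 probes), checked on simulated data. Genes of lists are given by their brightest probe, and probe names were updated through a RefSeq table. The text names all member probes, other Sox genes, Dnajc2, per list up to 3 genes with the smallest p and any called the opposite way, and the 3 genes most like Sox2, Sox11, Sox5 and Sox9. Markers at background, and a few further list members chosen after their values were seen, are named as well. Some genes that the rule takes are left out here. The members and lists were chosen with earlier results of these data known. Alternatives covered scaling, background correction, the authors' values, filters on dim probes, slide, replicate block and arrays left out. Normexp, alone or before quantile normalization, was run with an offset of 50 intensity units, which makes log2 changes of dim probes smaller.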

Additional observations from a re-analysis of the deposited data

Results flagged for a closer look

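Of 30 groups of 4 arrays tested for a sample far from the others, 2 stood out, and chance gives about 1 in 20. In Sox2 (A_52_P307739), control replicate 3 read 2.79, with the nearest other control at 3.07. In Sox4 (A_55_P2121613), control replicate 4 read 3.47, with the nearest other control at 3.55. The cause was not tested in either case.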

How the results depend on the processing

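The 10 called member probes kept their direction under every alternative run, and their call under every alternative with a test with the exception of Sox1 A_55_P2012051 on slide 2 alone. The number of called member probes was 7 of 10 with 1 probe per gene, 9 on slide 2 alone, 12 of 15 with quantile normalization after normexp or with the authors' values, 10 to 11 with 1 array left out and 10 otherwise. Over all probes 15535 to 16527 were called with 1 array left out. With the replicate block 10 member probes and 15015 of all probes were called. Replicate numbers did not pair the samples: the correlation of deviations in same-numbered arrays was 0.106, -0.119, 0.113 and -0.192. Between a control and a knockdown array of the same slide it was 0.113 to 0.320, and between those of different slides -0.260 to 0.106. The main fit has no term for the slide. With slide as a fixed block 10 member probes and 17307 of all probes were called. With knockdown arrays that share a file number averaged, 10 member probes and 14237 probes were called, and without both arrays of 1 such number, added after the data were seen, 10 member probes. Scaling by the median moved the median change of all probes from 0.05 to -0.12 and left 38.0% of calls in the higher direction, against 50.8%.

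All reversed signs were in probes not called. Sox4 A_55_P2121613 came to -0.049 with median scaling. Sox12 came to -0.087 with median scaling, -0.054 with quantile normalization, -0.055 with the authors' values, -0.14 without control replicate 3 (its range with 1 array left out was -0.14 to 0.23), -0.011 without knockdown replicate 4 and -0.084 without both knockdown arrays of file number 3. Sox4 A_55_P2121608 came to 0.061 with quantile normalization, 0.059 with the authors' values, 0.075 on slide 2 alone, 0.022 without control replicate 1 (range with 1 array left out -0.13 to 0.022), 0.015 without knockdown replicate 1 and 0.060 without both knockdown arrays of file number 2, which also turned Sox4 A_55_P2131899 to 0.031. Sox4 A_55_P2121613 was called with quantile normalization (0.21, limma adjusted p = 0.0234) and with the authors' values (0.20, limma adjusted p = 0.0255), as was the Sox5 repeat probe with quantile normalization (0.21, limma adjusted p = 0.0384). Of the 5 probe pairs, 3 passed with quantile normalization, 3 with the authors' values and 0 to 3 with 1 array left out. The cause was not tested. With quantile normalization the median change of the mesoderm list was 0.99, against 1.90 with 75th percentile scaling, and that of the fibroblast list 0.73, against 1.43. In the lists no called gene changed sign with median scaling, quantile normalization, the authors' values, the slide block or averaged knockdown arrays. Beside Col11a2 and Hapln1, the calls of Sox17, Mitf, Snai2, Foxa2 and Meox1 were lost with median scaling, those of Mbp, Ngfr and Meox1 with quantile normalization, and those of Sox17, Mbp, Ret, Acan, Ngfr, Tfap2a, Foxa2 and Meox1 with averaged knockdown arrays, where Hapln1 kept its call. Probes not above background, among them 2 of Sox5, have no measured change here.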
